A study of Homo sapiens with 12 samples.

Results

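The 5 genes of the Rel family, *RELA*, *RELB*, *REL*, *NFKB1* and *NFKB2*, were followed by symbol through 12 RNA-seq libraries of HCT116 cells, a human colon cancer cell line, as 5 of the 26364 gene symbols counted. Each library is the only one of its condition. WT cells and the p65-deficient clone 32 received no inhibitor, the topoisomerase 1 (TOP1) inhibitor CPT (camptothecin) or the topoisomerase 2 (TOP2) inhibitor ICRF193 (5 µM for 2 h), and then either no TNFα (0 h) or 20 ng/mL TNFα for 1 h. The study describes clone 32 as 1 clone made with CRISPR-Cas9 against *RELA*, whereas the deposited labels of its 6 libraries read shRNA p65, and a difference between it and WT cells cannot be told apart from a difference between a clone and its parent population.

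NF-κB is a dimer of Rel family proteins. *RELA* (p65), *RELB* and *REL* (c-Rel) encode the subunits with transactivation domains, while *NFKB1* and *NFKB2* encode the precursors p105 and p100, which are processed to the DNA-binding subunits p50 and p52 and otherwise hold other subunits in the cytoplasm. TNFα activates the canonical pathway, in which IκB proteins are degraded and p65-containing dimers enter the nucleus, and several genes of the pathway, IκBα (*NFKBIA*) first among them, are classical NF-κB targets.

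Promoter sequence is shown first, as a description of the genes. The RefSeq windows around annotated start sites (GRCh38.p14), each reaching from 250 bases before the start to 50 after it, were searched on both strands for the κB consensus, the 10-base motif that NF-κB dimers bind. Windows were given for 4 of the 5 genes, *RELB* being the exception. The 8 matches lay in 6 places without overlap, and 1 match from each of 4 windows is printed below, 5′ to 3′ on the strand of the gene, with the matching bases in capitals.
REL, chr2:60881517-60881546, plus strand: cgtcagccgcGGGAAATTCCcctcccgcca
NFKB1, start site 1, chr4:102501300-102501329, plus strand: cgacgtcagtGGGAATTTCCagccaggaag
NFKB2, start site 2, chr10:102394461-102394490, plus strand: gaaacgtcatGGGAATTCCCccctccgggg
NFKB2, start site 3, chr10:102395674-102395703, plus strand: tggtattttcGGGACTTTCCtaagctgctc
The first base of these matches lay at -47 for *REL*, -49 for *NFKB1*, and -107 and -21 for start sites 2 and 3 of *NFKB2*. Neither of the 2 *RELA* windows held a match, nor did start site 2 of *NFKB1* or start site 1 of *NFKB2*. This says only that these letters are not in these windows. Of all 35116 promoter windows, 5.91% held at least 1 match, and 0.74% held 2 or more. A match is a description of the sequence and was not tested as a binding site, and its relation to the TNFα effect was not tested.

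**Figure D1:**
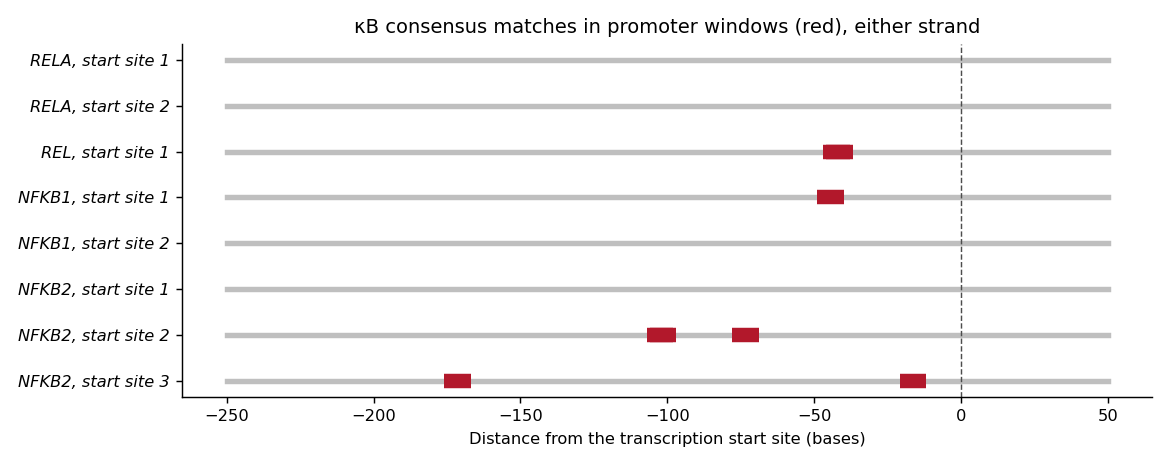
Position of κB consensus matches (red) in the promoter windows (grey) of *RELA*, *REL*, *NFKB1* and *NFKB2*, in bases from the annotated start site (dashed line), either strand. The 8 matches fall in 6 places, 4 of them in *NFKB2* windows, and none in the *RELA* windows.

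Between 8101212 and 22051046 reads were counted per library. The 4 libraries of clone 32 with ICRF193 at 0 h and with every treatment at 1 h held 8101212 to 8755001 reads, fewer than the other 8, so that for clone 32 depth and TNFα cannot be told apart, except in its ICRF193 pair. The epithelial markers *EPCAM*, *CDH1*, *KRT8*, *KRT18* and *KRT19* had 780 reads or more in every library, *VIL1* had 0 to 4, and of 6 markers of other cell types *PTPRC*, *CD3E*, *COL1A2* and *PECAM1* had at most 3 reads, while *CD68* (macrophages) had 149 to 451 and *COL1A1* (stromal cells) 57 to 227. The summed level of these 6 was 19.5 to 36.6 CPM per library, beside 3573 to 4744 CPM for the epithelial markers, and its part in the results was not tested. Every member had reads in each of the 12 libraries, from 34 reads of *REL* to 3284 of *NFKB2*, and all 5 passed the filter on low counts in each test. To set libraries of unequal depth side by side, each count was divided by a DESeq2 size factor (the normalized count). Levels of different genes are compared as TPM, which also divides by exonic length.

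*NFKB1*, *RELA* and *NFKB2* formed the abundant part of the family and *RELB* and *REL* the scarce part. The median level over the 12 libraries was 41.6 TPM for *NFKB1* (range 36.9 to 45.1), 32.2 for *NFKB2* (28.2 to 81.7) and 32.1 for *RELA* (25.5 to 41.9). It was 8.52 TPM for *RELB* (6.0 to 26.8) and 3.28 for *REL* (0.93 to 5.64). The ranges of the first 3 genes overlap, and so does that of *RELB* with the lower end of *RELA*. In every library, *RELB* came next to last and *REL* last. The first place was held by *RELA* or *NFKB1* in WT cells at 0 h, by *NFKB2* in all 3 WT libraries at 1 h, and by *NFKB1* in all 6 libraries of clone 32. *NFKB2* made up 24.5% to 28.2% of the summed TPM of the 5 genes in WT cells at 0 h and 35.7% to 41.1% at 1 h, beside 24.8% to 30.3% in clone 32.

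**Figure D2:**
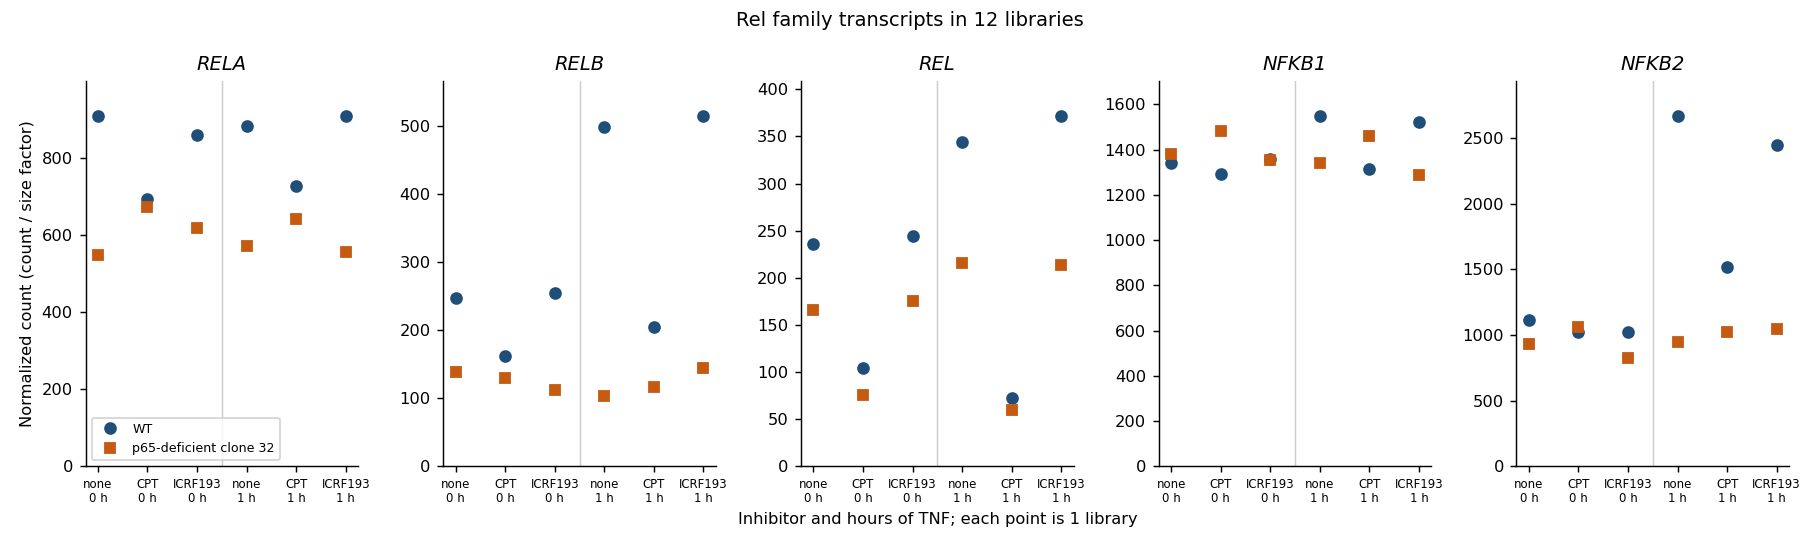
Normalized counts of the 5 genes in each of the 12 libraries, by inhibitor and hours of TNFα, for WT cells (blue circles) and clone 32 (orange squares); each point is 1 library, so there are no error bars. *RELB* and *NFKB2* rise at 1 h in WT cells, *REL* is lowest in the 4 CPT libraries, and *NFKB1* stays between 1287 and 1548.

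The first comparison asked how the clone differed from WT cells, starting with the targeted gene. *RELA* (chr11:65421067-65430443, minus strand, hg19) spans 9.4 kb. Its normalized count in WT cells at 0 h was 908 (no inhibitor), 694 (CPT) and 859 (ICRF193), and at 1 h it was 882, 727 and 909 in the same order. In clone 32 it was 548, 673 and 619 at 0 h, and 573, 643 and 556 at 1 h. Each clone library was thus below its WT counterpart, but with CPT the gap was small. The log2 ratio of clone 32 over WT was -0.73 without inhibitor at 0 h (95% interval -0.86 to -0.60) and -0.04 with CPT at 0 h (-0.18 to 0.09). These Clopper-Pearson intervals cover counting error only, treat reads as independent molecules, and compare 2 libraries, not the conditions. Gene counts over all exons do not show whether a transcript carries the edit, and they do not measure p65 protein. The study examined p65 protein by western blot and describes clone 32 as lacking it.

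With the 6 treatments as matched pairs, 4 of the 5 members were called by edgeR's quasi-likelihood test at a Benjamini-Hochberg adjusted p under 0.05, all lower in clone 32, beside 32.1% of the 13730 genes tested (16.9% lower). Since the labels name no separate cultures and each condition has 1 library, the 6 pairs stand in for replicates here and in the tests that follow, and their p-values can be smaller than the spread between pairs would give. *RELB* fell by 1.18 on the log2 scale (SE 0.18, adjusted p = 0.00027), *NFKB2* by 0.62 (SE 0.15, adjusted p = 0.0065), *REL* by 0.56 (SE 0.08, adjusted p = 0.00017) and *RELA* by 0.45 (SE 0.08, adjusted p = 0.00092). *NFKB1*, the p105 precursor, had a log2 difference of 0.00 (SE 0.05, adjusted p = 1.0). In the 2 pairs whose clone library was not shallow (no inhibitor and CPT at 0 h), no member was called. That fit called 521 genes in all, as against 4408 with the 6 pairs. The differences in it were -0.59 for *RELB*, -0.49 for *REL*, -0.39 for *RELA* and -0.10 for *NFKB2*. Without the block of pairs, only *RELA* and *RELB* were called, beside 2043 genes in all.

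The lines lay further apart at 1 h than at 0 h for *NFKB2* and *RELB*, a difference that is tested below as the interaction of line and TNFα. In the 3 pairs at 0 h, a split chosen after seeing the data, 3 members were called beside 8.53% of all genes, with *NFKB2* at -0.16 (SE 0.08, adjusted p = 0.26). In the 3 pairs at 1 h, 4 were called beside 21.6% of all genes, with *NFKB2* at -1.08 (SE 0.12, adjusted p = 4.1e-05). *RELB* moved from -0.76 (SE 0.15) at 0 h to -1.66 (SE 0.19) at 1 h. *RELA* had -0.41 (SE 0.11, adjusted p = 0.0499) and -0.48 (SE 0.09), and *REL* -0.48 (SE 0.12) and -0.64 (SE 0.12). All 3 clone libraries at 1 h are shallow, as against 1 of 3 at 0 h, and the part of depth was not tested.

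**Figure D3:**
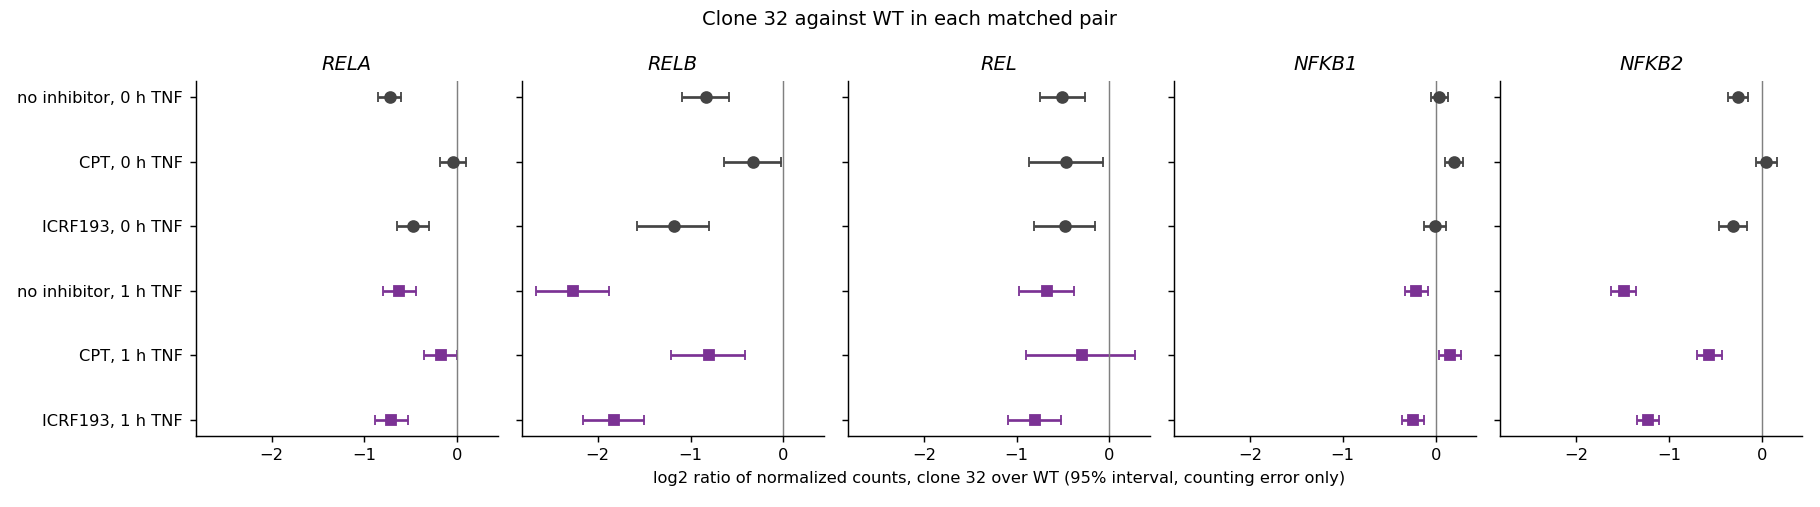
Log2 ratio of normalized counts, clone 32 over WT, for each gene in the 6 matched pairs (grey circles at 0 h, purple squares at 1 h TNFα); bars are 95% intervals for counting error only. The ratio of *RELB* at 1 h without inhibitor is -2.27, that of *NFKB2* -1.49, and those of *NFKB1* lie between -0.24 and 0.19.

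TNFα raised *NFKB2* and *RELB*, the pair whose products form the p52/RelB dimer of the noncanonical pathway, in WT cells. *NFKB2* (chr10:104153867-104162286, plus strand, hg19, 8.4 kb) went from 1116 to 2666 normalized counts without inhibitor, from 1022 to 1518 with CPT and from 1020 to 2449 with ICRF193. These are ratios of 2.39, 1.49 and 2.40, so that all 3 WT libraries at 1 h were above all 3 at 0 h. *RELB* (chr19:45504707-45541456, plus strand, hg19, 36.8 kb) went from 248 to 498, from 163 to 204 and from 254 to 515 normalized counts in the same order. The level reached by *RELB* with CPT and TNFα was below that of WT cells without either, and the groups at 0 h and 1 h overlap.

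In the edgeR test over the 3 WT pairs, 2 of the 5 members were called beside 0.642% of the 13707 genes tested (0.613% higher). The log2 fold change was 1.04 for *NFKB2* (SE 0.08, adjusted p = 1.9e-08) and 0.84 for *RELB* (SE 0.10, adjusted p = 1.4e-05). *REL* had 0.37 (SE 0.12, adjusted p = 0.50), *NFKB1* 0.13 (SE 0.05, adjusted p = 0.81) and *RELA* 0.03 (SE 0.05, adjusted p = 1.0). With the block of pairs left out, edgeR called 0 genes (97 at an unadjusted p under 0.05).

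*REL* and *NFKB1* were called when the CPT pair was left out, and *REL* also with that pair kept when no filter on low counts was used (0.37, adjusted p = 0.0071). *REL* (chr2:61108630-61155291, plus strand, hg19, 46.7 kb) rose with TNFα from 236 to 344 normalized counts without inhibitor and from 245 to 372 with ICRF193, but with CPT it went from 105 to 73, a log2 ratio of -0.52 (95% interval -0.91 to -0.13). *NFKB1* (chr4:103422486-103538459, plus strand, hg19, 116.0 kb) went from 1342 to 1548 without inhibitor, from 1360 to 1522 with ICRF193 and from 1294 to 1313 with CPT. With the CPT pair left out, 4 members were called beside 2.73% of all genes. *REL* then had a log2 fold change of 0.57 (SE 0.08, adjusted p = 4.9e-07) and *NFKB1* one of 0.18 (SE 0.04, adjusted p = 0.0031), with *NFKB2* at 1.26 and *RELB* at 1.01. *RELA*, the gene of the subunit that TNFα activates at the protein level, had 0.01 (SE 0.05, adjusted p = 0.95).

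The test of the difference, the TNFα effect with CPT minus that without, called 2 of the 5 members, *REL* and *NFKB2*, beside 0.236% of 15267 genes. The CPT side is 1 WT library at 0 h and 1 at 1 h. Its spread is assumed to be that of the other groups. Outside the CPT libraries, the library without inhibitor and that with ICRF193 counted as members of 1 group, separately for each line and TNFα time. The study describes 2 h of inhibitor followed by 1 h of TNFα, so any longer CPT exposure at 1 h cannot be told apart from TNFα. The difference was -1.10 for *REL* (SE 0.21, adjusted p = 0.021) and -0.69 for *NFKB2* (SE 0.12, adjusted p = 0.0065). *RELB* also had -0.69, with a wider error (SE 0.19, adjusted p = 0.28). *NFKB1* had -0.16 (SE 0.09) and *RELA* 0.05 (SE 0.12). The call for *REL* was lost in the 6 WT libraries alone (adjusted p = 0.052), with DESeq2 (adjusted p = 1.0) and in 4 of the 8 edgeR fits that left out 1 library: WT without inhibitor at 0 h (0.074), WT with ICRF193 at 1 h (0.068), and clone 32 at 1 h without inhibitor (0.052) or with ICRF193 (0.051).

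In clone 32, no member was called for TNFα, beside 0.498% of 12858 genes, and none had an unadjusted p under 0.05. DESeq2 called no member either, beside 1 gene in all. *NFKB2* went from 935 to 950 normalized counts without inhibitor, from 1058 to 1027 with CPT and from 822 to 1049 with ICRF193. The pair with ICRF193, whose libraries are of similar depth, is the only one of the 3 whose interval excludes 0 (log2 ratio 0.35, 95% interval 0.18 to 0.52). *RELB* went from 139 to 104, from 130 to 117 and from 112 to 145, lower in 2 pairs and higher in 1. The fitted log2 fold change was 0.11 for *NFKB2* (SE 0.07) and -0.08 for *RELB* (SE 0.14), while *REL* had 0.22 (SE 0.13, adjusted p = 0.47). *REL* went from 166 to 216 normalized counts without inhibitor (log2 ratio 0.38, 95% interval 0.06 to 0.70). It went from 75.7 to 59.4 with CPT and from 175 to 213 with ICRF193. With the CPT pair left out, *REL* had 0.35 in the edgeR test and was not called (adjusted p = 0.34).

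The TNFα effect on *NFKB2* differed between the lines. The interaction test over all 12 libraries called 1 member beside 0.228% of 14459 genes, with a difference, WT minus clone 32, of 0.94 for *NFKB2* (SE 0.14, adjusted p = 0.0019). For *RELB* the difference was as large, 0.92 (SE 0.20), with an adjusted p of 0.058 from edgeR. With 1 pair left out, its adjusted p was 2.6e-05 without the WT pair with CPT and 0.014 without the clone pair with ICRF193, the only clone pair of even depth, and 0.18 to 0.75 without any of the other 4 pairs. It was also called with no filter on low counts (adjusted p = 8.3e-07). *REL* had 0.15 (SE 0.22, adjusted p = 0.85), *NFKB1* 0.17 (SE 0.07, adjusted p = 0.46) and *RELA* 0.08 (SE 0.09, adjusted p = 0.81). DESeq2 called no member (*NFKB2* 0.92, adjusted p = 0.42), beside 6 genes in all, where edgeR called 33. Without the clone pair that received no inhibitor, the edgeR call for *NFKB2* was just lost (0.89, adjusted p = 0.0505).

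**Figure D4:**
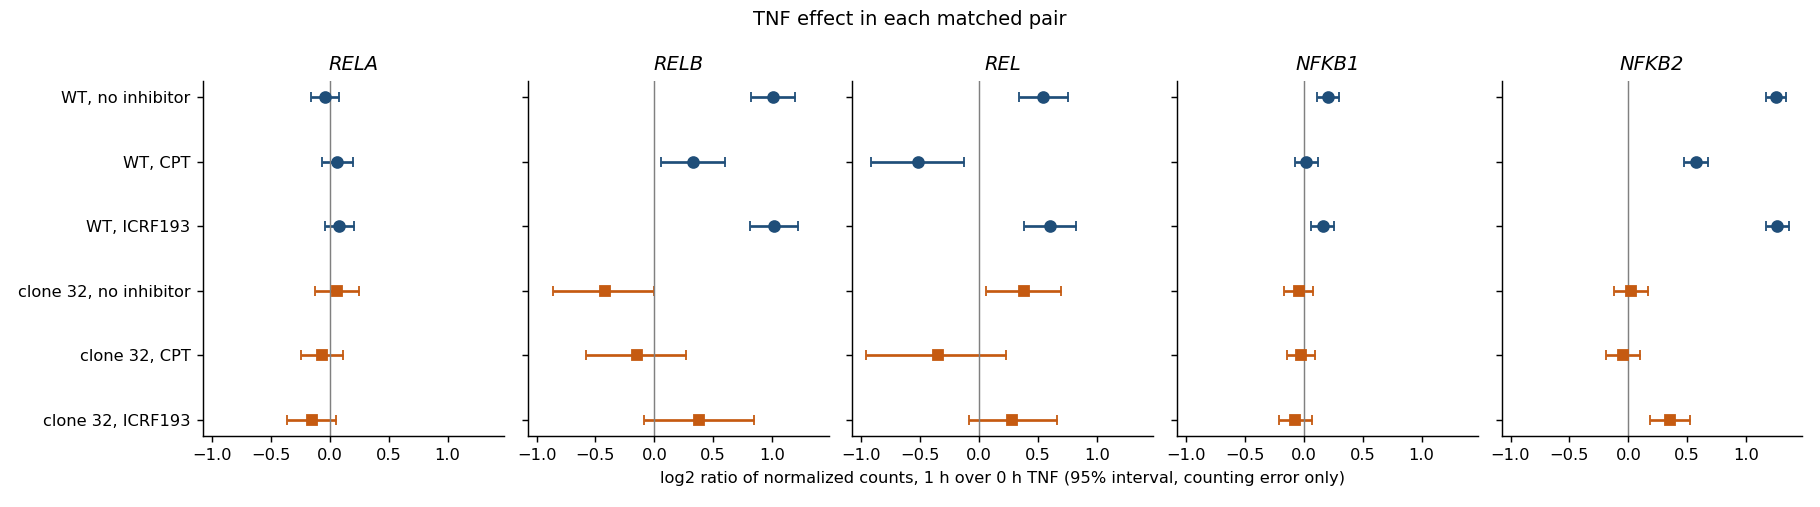
Log2 ratio of normalized counts at 1 h over 0 h TNFα, for each gene in the 3 WT pairs (blue circles) and the 3 pairs of clone 32 (orange squares); bars are 95% intervals for counting error only. In WT cells the ratio of *NFKB2* is 1.26 without inhibitor, 0.57 with CPT and 1.26 with ICRF193, and *REL* is above 0 without CPT and below 0 with it.

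CPT lowered *REL* in every pair. Its normalized count fell from 236 to 105 in WT cells at 0 h and from 344 to 73 at 1 h, and in clone 32 from 166 to 75.7 at 0 h and from 216 to 59.4 at 1 h. All 4 CPT libraries were below all 4 without inhibitor. The value of 59.4 rests on 34 reads. *RELB* fell with CPT in WT cells, from 248 to 163 at 0 h and from 498 to 204 at 1 h, while in clone 32 it was 139 and 130 at 0 h, and 104 and 117 at 1 h.

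Over the 4 pairs, edgeR called 2 of the 5 members, both lower, beside 48.3% of the 13993 genes tested (25.1% lower and 23.2% higher), so that a call for CPT is by itself common. *REL* fell by 1.58 on the log2 scale (SE 0.17, adjusted p = 2.5e-05) and *RELB* by 0.58 (SE 0.19, adjusted p = 0.023). The values were -0.19 for *NFKB2* (SE 0.13, adjusted p = 0.24), -0.07 for *RELA* (SE 0.10, adjusted p = 0.57) and -0.03 for *NFKB1* (SE 0.06, adjusted p = 0.73). All CPT values are relative to the other genes of the libraries, and a shift shared by most genes would not show. The *RELB* call was lost without the WT pair at 1 h (-0.26, adjusted p = 0.21) and without the WT pair at 0 h (-0.58, adjusted p = 0.066). For scale, the 4098 tested genes that span 30 to 100 kb, *REL* and *RELB* among them, had a median log2 fold change of -0.05 (quartiles -0.31 and 0.10). The 2148 longer genes had a median of -0.11, and *NFKB1*, the longest member, lay above it. The 3685 genes of up to 10 kb had a median of 0.20 (quartiles -0.09 and 0.43). *RELA* and *NFKB2*, which are among them, lay below that median.

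With ICRF193, no member was called by edgeR, beside 2.17% of 13631 genes, or by DESeq2, beside 84 genes in all. In the edgeR test 1 member, *NFKB2*, had an unadjusted p under 0.05 (log2 fold change -0.09, SE 0.04, adjusted p = 0.37). *REL* had 0.07 (SE 0.07) and *RELB* 0.04 (SE 0.08). Set directly against ICRF193 at the same dose and time, CPT libraries had less *REL*, by -1.68 (SE 0.17, adjusted p = 4.4e-06), and less *RELB*, by -0.66 (SE 0.19, adjusted p = 0.010), the 2 members called by edgeR beside 46.4% of 13900 genes. The *RELB* call was lost with DESeq2 (-0.54, adjusted p = 0.20) and without the WT pair at 1 h (-0.31, adjusted p = 0.15).

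The CPT effect on *RELA*, *RELB* and *NFKB2* differed between the lines. *RELA* had CPT log2 ratios in WT cells of -0.39 (95% interval -0.51 to -0.26) at 0 h and -0.28 (-0.41 to -0.15) at 1 h. In clone 32 its ratios were 0.30 (0.16 to 0.44) and 0.17 (-0.05 to 0.38). The directions in the lines are thus opposite in both pairs, and the average over them, given above, is close to 0. *NFKB2* had -0.13 and -0.81 in WT cells against 0.18 and 0.11 in clone 32. The interaction test by edgeR called 3 members beside 4.78% of 14573 genes, with a difference, WT minus clone 32, of -0.56 for *RELA* (SE 0.11, adjusted p = 0.0054), -0.95 for *RELB* (SE 0.22, adjusted p = 0.019) and -0.62 for *NFKB2* (SE 0.15, adjusted p = 0.025). *REL* had -0.30 (SE 0.30, adjusted p = 0.64) and *NFKB1* -0.23 (SE 0.09, adjusted p = 0.17). DESeq2 called none of the 5 (*RELA* -0.58, adjusted p = 0.069), beside 146 genes in all, where edgeR called 696. The edgeR call for *RELA* was lost without the clone pair at 0 h (-0.49). Without the WT pair at 1 h *NFKB2* had -0.26 and *RELB* -0.57, neither called, and without the block both calls were lost.

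**Figure D5:**
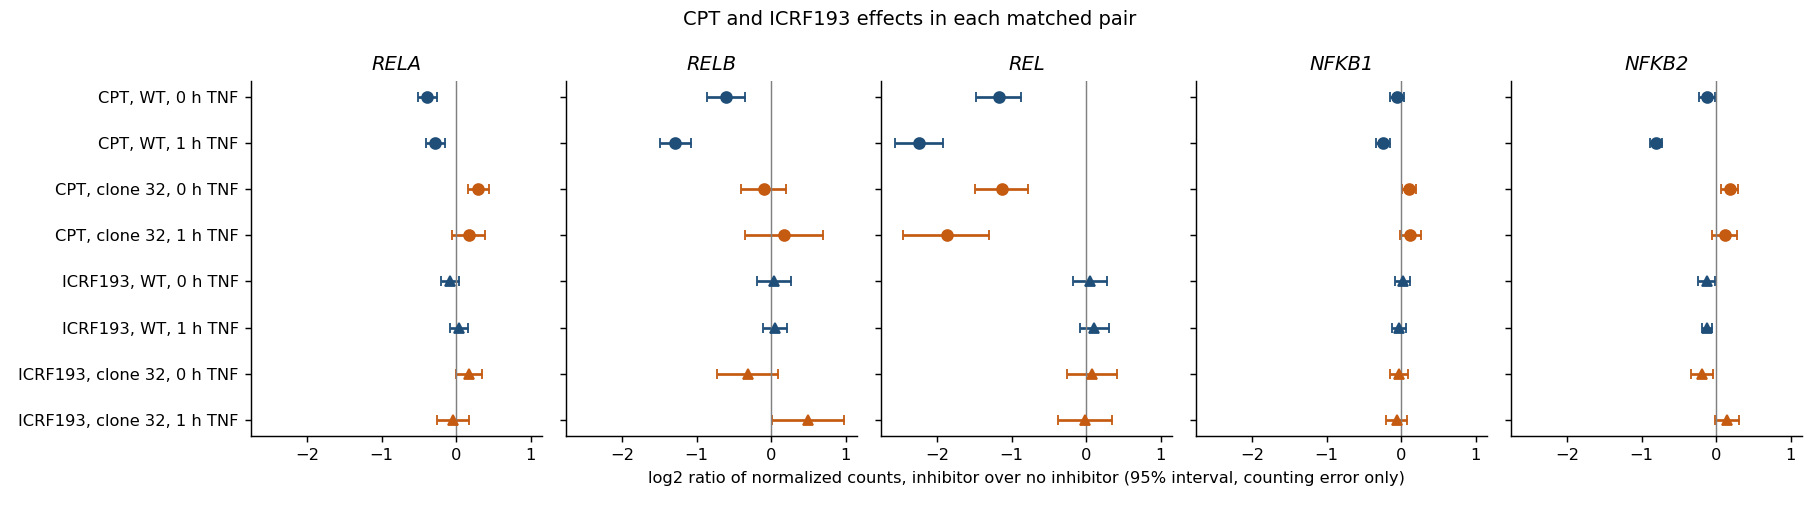
Log2 ratio of normalized counts, inhibitor over no inhibitor, for CPT (circles) and ICRF193 (triangles) in WT cells (blue) and clone 32 (orange) at 0 h and 1 h TNFα; bars are 95% intervals for counting error only. *REL* lies between -2.24 and -1.13 in the 4 CPT pairs and between -0.02 and 0.11 in the 4 ICRF193 pairs, while *RELA* is below 0 with CPT in WT cells and above 0 in clone 32.

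Other genes of the pathway were counted in lists of 41 genes, 39 of which were tested: IκB proteins, kinases, the receptor complex, noncanonical inputs, ubiquitin-editing brakes and the processing of the precursors. With TNFα in WT cells, 8 of the 39 were higher, beside 0.613% of all genes tested, and 0 were lower. Of these 8, 5 were among the 6 IκB genes (*BCL3*, *NFKBIA*, *NFKBID*, *NFKBIE* and *NFKBIZ*). The others were *BIRC3*, *IKBKE* and *TNFAIP3*. None of the 39 was called for TNFα in clone 32, beside 0.498% of all genes tested. With CPT, 23 of the 39 were lower, beside 25.1% of all genes, and 4 were higher, beside 23.2% of all genes. The median log2 fold change was -0.24 beside 0.02 over all genes tested, which the scaling holds near 0. With ICRF193, 1 was called, and it was lower, beside 2.17% of all genes called in either direction. In clone 32 against WT cells, 16 of the 39 were lower, beside 16.9% of all genes, and 0 were higher. The median over the 39 was -0.16 beside 0.00 over all genes.

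The genes whose log2 CPM was most like that of each member over the 12 libraries were ranked among 10229 genes by Pearson's coefficient, as a description, since the libraries share treatments and cell lines. For *NFKB2* they were *CXCL8*, *NFKBIA* and *TNFAIP3* (0.97, 0.97 and 0.95). For *RELA* they were *CNOT1*, *FUBP1* and *NOP14* (0.97 each), for *RELB* *DNTTIP1*, *PLAUR* and *IGBP1* (0.94 to 0.95), and for *REL* *PANX1*, *ZC3H12C* and *FBXO33* (0.98 to 0.99). The coefficients were lowest for *NFKB1*, with *KLF10*, *SQSTM1* and *MAPRE1* (0.90 to 0.91).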

How the data were processed

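RNA-seq libraries from HCT116 cells were analysed from the deposited counts. Per the labels and file headers, the authors trimmed reads with Trimmomatic, mapped them to hg19 (STAR is named in the submitters' processing notes) and counted exonic reads per gene symbol with featureCounts 1.5.0, with no strand option and no normalization, so that reads from overlapping antisense transcripts cannot be told apart. Groups came from the labels. TPM used the deposited exonic lengths. Tests used edgeR 4.0.16 (TMM, filterByExpr, quasi-likelihood, matched pairs as a block, Benjamini-Hochberg, threshold 0.05) in R 4.3.3, with SEs derived from the fold change and the F statistic. They were also run on simulated counts. Those had no treatment differences apart from the planted ones, so that run does not test the use of treatments as replicates. DESeq2 1.42.0, other scalings and filters, no block and left-out pairs were the alternatives.

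The members and gene lists were chosen with earlier results of these data known. The filter was first run with the block in its design. After those values were seen it was replaced by the filter without the block, to test the same genes as earlier tests of these data. Both sets of values are kept, and no member's call differed between them in the 8 comparisons with a block (the test of TNFα with and without CPT has none). Named genes were the 5 members in every comparison, the 3 genes most like each in log2 CPM (prior count 2, mean count of at least 100), and listed pathway genes by counts.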

Additional observations from a re-analysis of the deposited data

Results flagged for a closer look

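The results below were singled out because an effect differed between cell lines or between treatments in a test of the difference itself (edgeR interaction terms, adjusted p under 0.05). The TNFα effect on *NFKB2* was larger in WT cells than in clone 32 by 0.94 on the log2 scale. The CPT effect differed between the lines, WT minus clone 32, by -0.56 for *RELA*, -0.95 for *RELB* and -0.62 for *NFKB2*. In WT cells, the TNFα effect with CPT minus that without was -1.10 for *REL* and -0.69 for *NFKB2*. That last comparison has 1 WT library with CPT per time point, and its error comes from the libraries without CPT. In it, any longer CPT exposure at 1 h cannot be told apart from TNFα. DESeq2 kept 1 of these 6 calls, that of *NFKB2* in the last comparison.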

How the results depend on the processing

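Counts of called members and of all called genes follow. Clone effect (4 members, 4408 genes): 2 and 2043 without the block, 0 and 521 in the pairs without a shallow library, 1179 genes at 0 h and 2892 at 1 h, and 3186 to 5136 genes with 1 pair left out. TNFα in WT cells (2 and 88): 22 genes with DESeq2, 0 and 0 without the block, and 2 to 4 members and 60 to 372 genes with 1 pair left out. TNFα in clone 32 (0 and 64): 39 genes with total counts, 143 without the filter, 1 with DESeq2, 0 without the block (129 at an unadjusted p under 0.05), and 14 to 581 with 1 pair left out. Difference in TNFα effect between the lines (1 and 33): 2 and 132 without the filter, 0 and 6 with DESeq2, 0 and 0 without the block (149 genes at an unadjusted p under 0.05), and 0 to 2 and 5 to 99 with 1 pair left out. CPT (2 members): 1 without the block and 1 to 3 with 1 pair left out. ICRF193 (296 genes): 84 with DESeq2, 3 without the block, and 148 to 322 with 1 pair left out. CPT against ICRF193 (2 members): 1 with DESeq2, 1 without the block, and 1 to 3 with 1 pair left out. Difference in CPT effect (3 and 696): 1096 genes without the filter, 0 and 146 with DESeq2, 1 and 343 without the block, and 1 to 5 and 277 to 1696 with 1 pair left out. TNFα with and without CPT (2 and 36): 77 genes without the filter, 1 and 21 with DESeq2, 1 member in WT libraries alone, and 1 to 2 and 22 to 48 with 1 library left out. The cause of these changes was not tested.

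No called member reversed, and of 490 member values under alternatives 447 kept their call or lack of one, 32 lost a call and 11 gained one. The filter with the block in its design, run first and replaced after its values were seen, tested 14766 genes in place of 13730 for the clone effect and called 4460, and for TNFα in WT cells it called 91 in place of 88. In the 8 comparisons that have a block it changed 0 member calls and moved no member's log2 value by more than 0.006. With total counts, the share of called genes that were higher went from 47.5% to 57.5% for the clone effect, from 56.2% to 71.8% for TNFα in clone 32, and from 27.0% to 38.0% for ICRF193. Each single-pair ratio was recomputed with TMM factors and again with total counts, and all 210 recomputed values stayed within their counting interval. *REL* and *RELB* in the shallow libraries rest on 34 to 135 reads.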
